A study of Saccharomyces cerevisiae with 12 samples.

Results

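The transcripts described here come from the 45 genes of the budding yeast Saccharomyces cerevisiae whose names consist of ALG, OST, PMT, MNN or GPI followed by a number. They were taken by name from the array annotation, out of 5449 genes measured. The rule uses names alone, but the families were picked with earlier results of these data known. The 5 name families hold 12 ALG, 6 OST, 7 PMT, 7 MNN and 13 GPI genes, and each gene was read by 1 probe set. Cells growing in rich medium (YPD) at 25 °C, in mid-log phase, received 0.1% methyl methanesulfonate (MMS), which alkylates DNA bases, or 0.3 mM H2O2, an oxidant. One Affymetrix array was made at each of 0, 30, 60, 100, 140 and 180 min of each course, which gave 12 arrays. The groups compared were late MMS (100, 140 and 180 min, n = 3), early MMS (30 and 60 min, n = 2), late H2O2 (100, 140 and 180 min, n = 3), early H2O2 (30 and 60 min, n = 2) and time 0 (the 0 min array of both courses, n = 2). No strain or genotype is given in the labels, and nothing in them sets the cells of one course apart from those of the other except the agent added.

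Most proteins that yeast sends to its surface carry sugars, and these genes encode the enzymes that put them on. The ALG enzymes build a branched oligosaccharide on the lipid dolichol, first on the cytosolic and then on the lumenal face of the endoplasmic reticulum (ER), and the OST subunits form oligosaccharyltransferase, which moves it onto asparagine residues. PMT proteins are mannosyltransferases that start O-linked glycans on serine and threonine in the ER. The MNN proteins act in the Golgi, where they lengthen and branch the mannan of the outer cell wall. The GPI proteins make the glycosylphosphatidylinositol anchor and attach it to proteins, many of which end in the cell wall. The names cover most of each pathway but not all of it, since enzymes such as STT3, OCH1 and MCD4 go by other names.

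Values are log2 signals, so a difference of 1 is a doubling. Array medians over the 5449 genes lay between 9.06 and 9.20. With no repeat cultures labelled, the time points of a window stood in for replicates, and p-values measure a difference against the spread among those time points. A difference counted as called where its p, adjusted by Benjamini-Hochberg over all genes, was under 0.05, and changes are given as log2 differences ± SE from limma. Signals of different genes come from different probes and were not set against each other. The values are relative to the total RNA on an array, so that less of a transcript in every cell and fewer cells that carry it cannot be told apart. The 4 markers of MATalpha cells had signals of 11.3 to 13.0 on all arrays and the 5 markers of MATa cells 4.05 to 7.04. Sporulation markers ranged from 3.37 to 7.40, and in late MMS 5 of these 6 rose (40.3% of all genes did) and 1 fell (34.6% of all genes did). Their part in the results was not tested. The deposited values hold no detection call, and the dimmest 25% of genes contained 4 of the 45 members (GPI2, GPI19, MNN4 and PMT5).

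After MMS, most transcripts of each of the 5 families declined. In late MMS, 34 of the 45 were lower than at time 0 (75.6%, against 34.6% of all genes in that direction) and 5 were higher (11.1%, against 40.3% of all genes). Calls in either direction made up 74.9% of all genes. The members' median change was -0.77, against 0.09 over all genes. The members that rose were ALG13, MNN4, PMT3, PMT7 and ALG7, and those that passed in neither direction were ALG1, ALG11, ALG14, GPI10, GPI14 and GPI19. All 3 late MMS arrays lay below both arrays at 0 min for 37 members (39.1% of all genes did) and above both for 7 (46.0% of all genes), which left ALG14 as the member that overlapped.

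**Figure D1:**
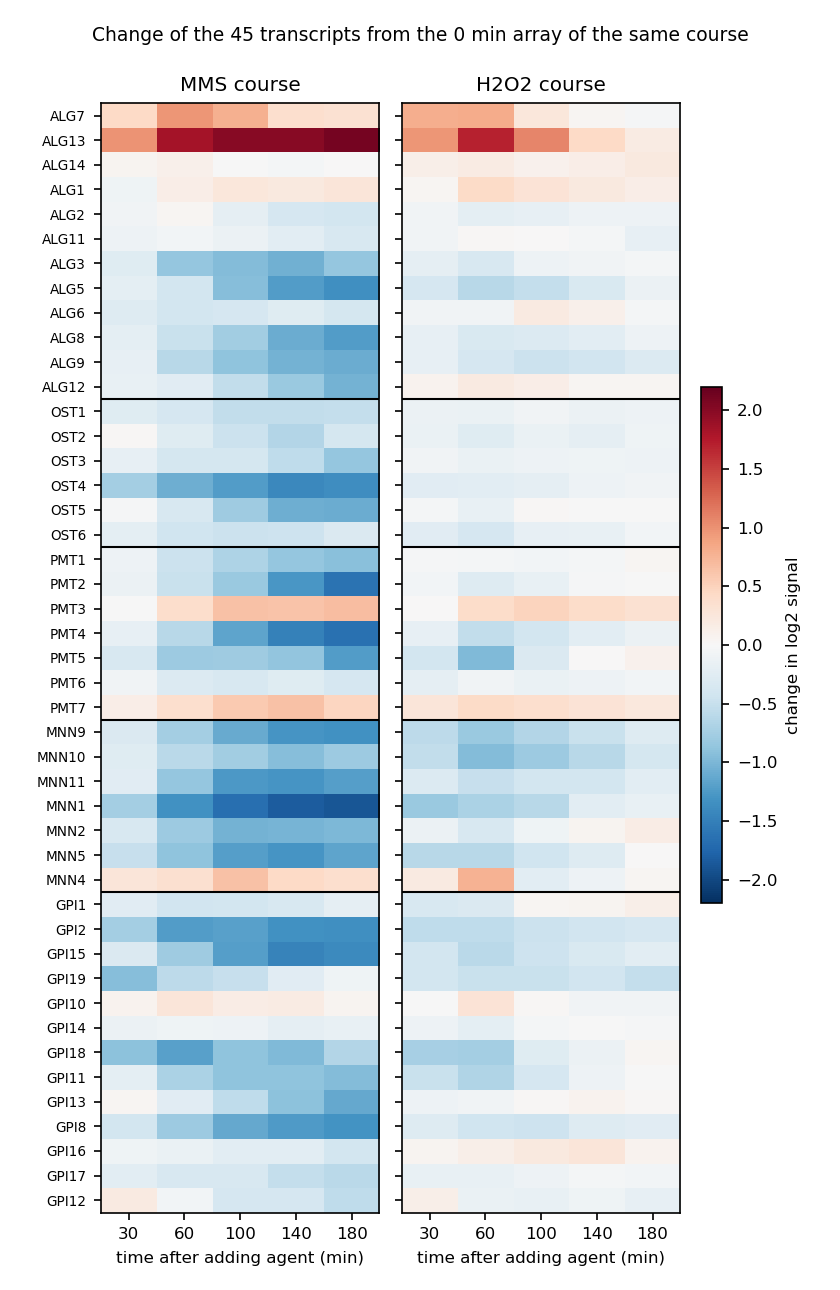
Change in log2 signal of each of the 45 transcripts (rows, by family and step, ALG at the top and GPI at the bottom) at 30 to 180 min, from the array at 0 min in that course. The left panel is the MMS course and the right panel the H2O2 course, with red for higher and blue for lower; the MMS panel turns blue over most rows and stays so, while the H2O2 panel is palest at 180 min.

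The decline built up over the MMS course. Set against the course's own array at 0 min, the median change of the 45 was -0.19, -0.40, -0.55, -0.82 and -0.79 at 30, 60, 100, 140 and 180 min. The number of members at 2-fold or more below that array was 0, 4, 10, 16 and 17 at these times. Over all 5449 genes the number was 101, 559, 818, 922 and 969, so it also grew there. At 180 min 17.8% of all genes were that far below, and 19.8% were as far above, as was 1 member, ALG13. Of the 34 members that fell, 21 reached their lowest MMS signal at the end of the course, 8 at 140 min, 2 at 100 min and 3 as early as 60 min. These 34 were called on their mean at 100, 140 and 180 min, so a lowest point there was largely fixed by that choice. The same count was not made over all genes.

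By family, the late MMS median was -1.17 for MNN (1 higher and 6 lower of 7), -0.79 for PMT (2 higher and 5 lower of 7), -0.60 for OST (6 lower of 6), -0.50 for GPI (10 lower of 13) and -0.32 for ALG (2 higher and 7 lower of 12). No OST or GPI gene was higher by the limma test, at an unadjusted p under 0.05 either. Members of a family are not replicates, and no test was made between families. At 60 min of MMS they were -0.80 for MNN, -0.47 for PMT, -0.43 for GPI, -0.38 for OST and -0.15 for ALG.

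**Figure D2:**
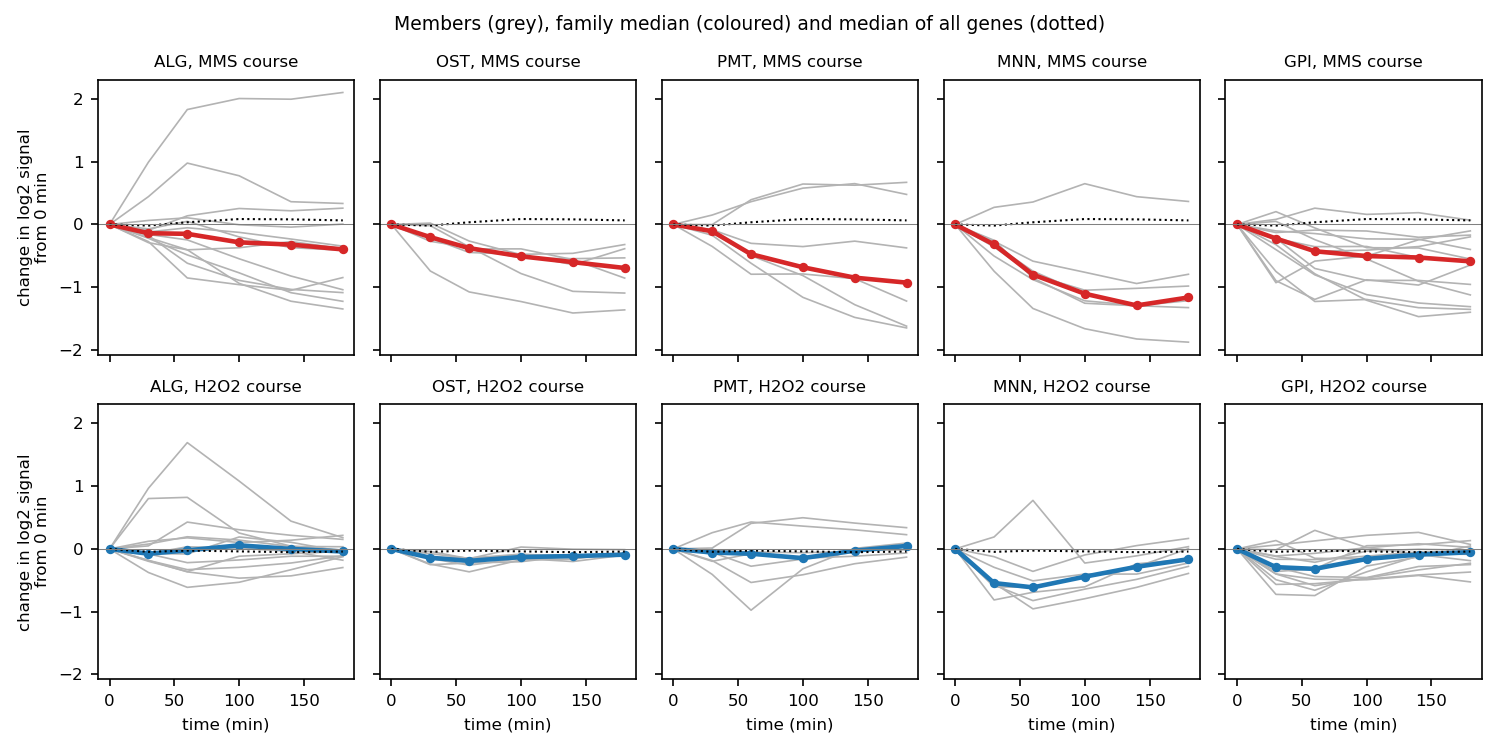
Change in log2 signal (vertical axis) against time in min (horizontal axis) for each member (grey), the family median (coloured) and the median of all genes (dotted), with the MMS course in the upper row and the H2O2 course in the lower row. In the MMS course the MNN median reaches -1.29 at 140 min, while in the H2O2 course it is lowest at 60 min, at -0.61, and -0.16 at 180 min.

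The ALG family divided along its pathway. The enzymes of the cytosolic face are ALG7, ALG13, ALG14, ALG1, ALG2 and ALG11, and in late MMS 2 of these 6 rose, 1 fell and their median change was 0.12. The genes of the lumenal face and of its glucose donor (ALG3, ALG5, ALG6, ALG8, ALG9 and ALG12) fell in 6 of 6 cases, by 0.32 to 1.15, with a median of -0.95. This division was drawn with the values known, so the difference between both sides carries no test.

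ALG13, the catalytic subunit of the transferase that adds the next N-acetylglucosamine to the dolichol lipid, rose more than any other member in late MMS. Its signal in the MMS course was 9.15, 10.14, 10.98, 11.16, 11.14 and 11.25 at 0, 30, 60, 100, 140 and 180 min. It reached its plateau by 100 min and stayed there, at a mean 4.01-fold above time 0 (2.003 ± 0.31, adjusted p = 0.000273). In the H2O2 course its signal was 9.21, 10.18, 10.91, 10.29, 9.66 and 9.39 at the same times. The climb up to 60 min had nearly the same height in both courses, and after that the H2O2 signal came down. The early rises were 1.38 ± 0.34 in MMS (adjusted p = 0.0161) and 1.36 ± 0.34 in H2O2 (adjusted p = 0.0151), and both share the arrays at 0 min. ALG13 lost each of these early calls in 5 of 20 alternatives, among them the omission of either 0 min array or of the course's 60 min array. In late H2O2 the value was 0.60 ± 0.31 (adjusted p = 0.201). Its membrane partner ALG14, with which it forms one enzyme, kept between 9.69 and 10.01 on all 12 arrays.

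ALG7, which starts the lipid-linked oligosaccharide and is the target of the antibiotic tunicamycin, showed a transient in both courses. Its MMS signal was 9.99, 10.44, 10.97, 10.77, 10.36 and 10.33 from 0 to 180 min, and its H2O2 signal was 10.09, 10.89, 10.91, 10.35, 10.14 and 10.07. The H2O2 course had reached its height by 30 min and the MMS course at 60 min. ALG7 rose by 0.66 ± 0.20 in early MMS (adjusted p = 0.0308) and by 0.86 ± 0.20 in early H2O2 (adjusted p = 0.0110). ALG7 lost each of these early calls in 5 of 20 alternatives, among them the omission of either 0 min array or of the course's 60 min array. Its late MMS value of 0.44 ± 0.18 was just past the threshold (adjusted p = 0.0457). That call was lost in 12 of 20 alternatives, with adjusted p up to 0.235, among them array centring and the omission of either 0 min array, of the 100 min MMS array or of the 30, 60, 140 or 180 min H2O2 array.

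**Figure D3:**
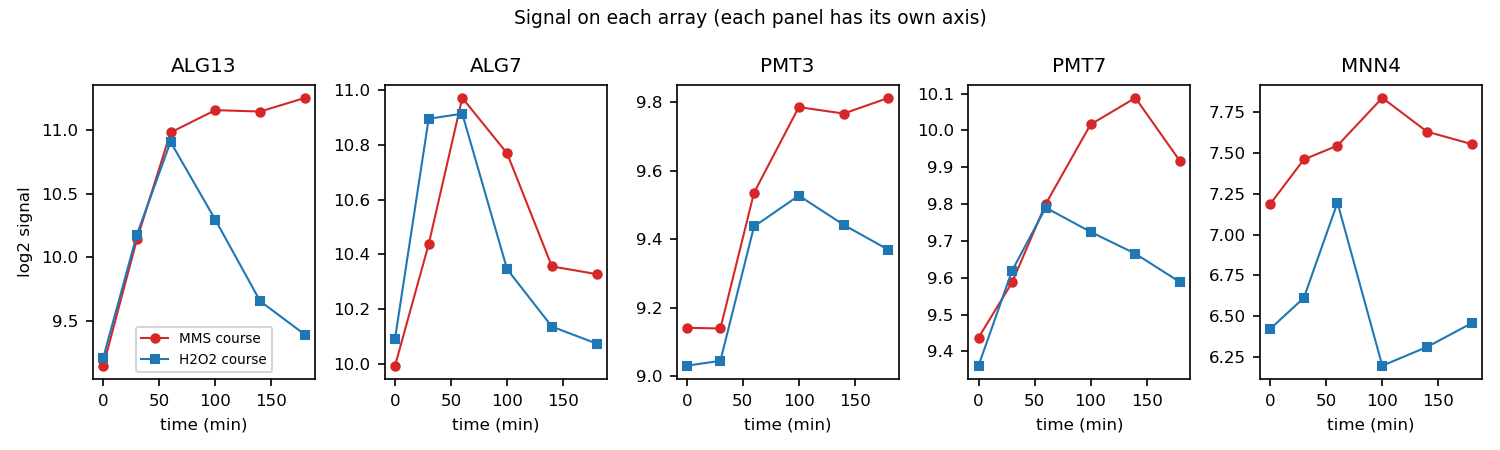
Log2 signal on each array (vertical axes, one range per panel) against time in min for the 5 transcripts that rose in late MMS, with the MMS course in red circles and the H2O2 course in blue squares. ALG13 stays near 11.2 from 100 min of MMS and returns to 9.39 at 180 min of H2O2, and MNN4 starts at 7.19 in the MMS course and at 6.42 in the H2O2 course.

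Of the mannosyltransferases that follow on the cytosolic face, ALG1 adds the innermost mannose, and ALG2 and ALG11 add the others. The MMS course of ALG1 was 9.86, 9.77, 10.003, 10.12, 10.08 and 10.12, and that of ALG11 10.71, 10.59, 10.65, 10.58, 10.47 and 10.36. Neither was called by limma in late MMS (adjusted p = 0.0540 for ALG1 and 0.101 for ALG11). Under the alternatives ALG1 was called higher in 6 of 20 and ALG11 lower in 1 of 20. ALG2 fell, with 9.45, 9.38, 9.50, 9.25, 9.08 and 9.04, and this call was lost without either 0 min array (adjusted p = 0.0551 and 0.0622, and up to 0.146 over the alternatives). In the other group, of the lumenal face and its glucose donor, the drop was larger. ALG5 is counted in that group for the donor it makes and not for the face on which it acts. ALG5, the synthase of the glucose donor dolichyl-phosphate glucose, had 10.12, 9.91, 9.71, 9.18, 8.89 and 8.77, the lowest value being the last. ALG8, a glucosyltransferase, had 10.04, 9.82, 9.56, 9.27, 8.96 and 8.82. ALG12, a mannosyltransferase, followed at 9.94, 9.78, 9.69, 9.39, 9.12 and 8.90. These 3 transcripts, and ALG9 (10.68, 10.51, 10.06, 9.79, 9.65 and 9.59), were at 2-fold or more below 0 min at 180 min. ALG6, the glucosyltransferase that acts before ALG8, moved least among them and lay between 10.26 and 10.39 at 30 to 180 min of MMS, against 10.66 and 10.62 at 0 min; its call was lost without the 0 min array of the MMS course (adjusted p = 0.0671, the highest over its alternatives).

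All 6 OST transcripts fell in late MMS, by 0.46 to 1.38. The small subunits OST4 and OST5 fell furthest. OST4 had 10.38, 9.64, 9.31, 9.15, 8.97 and 9.02 in the MMS course and 10.47, 10.22, 10.25, 10.27, 10.36 and 10.39 in the H2O2 course. Every MMS array from 30 min on lay below every H2O2 array. The late MMS change of OST4 was -1.38 ± 0.11 (adjusted p = 4.1e-05). It had also fallen in early MMS (-0.95 ± 0.12, adjusted p = 0.00168), while its early H2O2 mean was 10.23, against 10.43 at time 0. OST5 came later, at 10.49, 10.47, 10.13, 9.71, 9.43 and 9.40 in the MMS course. OST3 and OST6 are alternative thioredoxin-fold subunits that occupy the same place in the complex. OST3 fell by 0.60 ± 0.13 (adjusted p = 0.00203) and OST6 by 0.46 ± 0.10 (adjusted p = 0.00228). At 180 min of MMS OST3 was at its lowest (10.16, against 11.02 at 0 min), whereas OST6 had turned up to 10.07, against 10.39 at 0 min and 9.91 at 100 min. OST1, an essential subunit, had 11.75, 11.48, 11.38, 11.22, 11.21 and 11.22 and fell by 0.50 ± 0.08 (adjusted p = 0.000287). OST2, also essential, had 10.64, 10.66, 10.38, 10.16, 9.999 and 10.25.

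Among the PMT transcripts the ones for the main O-mannosyltransferases fell and those of 2 relatives rose. PMT1 and PMT2 pair with each other, and PMT4 pairs with itself. PMT4 had 11.09, 10.92, 10.48, 9.93, 9.61 and 9.44 in the MMS course and 11.10, 10.91, 10.56, 10.69, 10.86 and 10.97 in the H2O2 course. Up to 60 min both courses ran within 0.1 of each other, and then they parted. PMT4 fell by 1.43 ± 0.18 in late MMS (2.70-fold, adjusted p = 0.000101). PMT2 fell by 1.17 ± 0.21 (adjusted p = 0.000626), with 11.56, 11.43, 11.06, 10.74, 10.28 and 9.94 in the MMS course. It was still moving down at the last time point. PMT1 fell by 0.79 ± 0.12 (adjusted p = 0.000256). PMT5, which like PMT3 belongs to a further pair, had 8.13, 7.78, 7.34, 7.35, 7.27 and 6.91 and fell by 0.92 ± 0.21 (adjusted p = 0.00289). PMT3 went the other way, with 9.14, 9.14, 9.54, 9.79, 9.77 and 9.81, and rose by 0.70 ± 0.14 (adjusted p = 0.00136). PMT7, a member of the family by sequence, had 9.44, 9.59, 9.80, 10.02, 10.09 and 9.92 and also rose. In the H2O2 course PMT3 had 9.03, 9.04, 9.44, 9.53, 9.44 and 9.37, and PMT7 had 9.36, 9.62, 9.79, 9.72, 9.67 and 9.59. Both thus lay above 0 min at all later times of that course as well. In late H2O2 neither was called, but both were higher at an unadjusted p under 0.05 by limma. PMT6 fell, with 9.58 at 0 min against 9.23, 9.31 and 9.21 at 100, 140 and 180 min, and its call was lost in 5 of 20 alternatives, with adjusted p up to 0.211. These were the early window of 30 to 100 min and the omission of the MMS course's 0, 100 or 180 min array or of the 140 min H2O2 array.

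The MNN transcripts held the largest single fall among the 45. MNN1, the transferase that caps mannan side chains with alpha-1,3-linked mannose, had 9.31, 8.56, 7.97, 7.65, 7.48 and 7.43 in the MMS course. Its late MMS change was -1.76 ± 0.18 (3.40-fold lower, adjusted p = 5.11e-05). In the H2O2 course MNN1 had 9.26, 8.45, 8.57, 8.66, 9.02 and 9.10, so that it was lowest at 30 min and close to its first value at 180 min. MNN9, a subunit shared by both mannan polymerase complexes, fell by 1.29 ± 0.16 (adjusted p = 8.28e-05), with 10.66, 10.34, 9.92, 9.56, 9.37 and 9.34. MNN10 and MNN11, subunits of one of these complexes, had late MMS signals of 10.09, 9.91 and 10.06 (10.85 at 0 min) and of 9.74, 9.70 and 9.78 (11.00 at 0 min). MNN2 and MNN5, which start and extend the alpha-1,2-linked branches, were lower at 100, 140 and 180 min as well, at 10.04, 10.07 and 10.11 for MNN2 (11.09 at 0 min) and at 9.18, 9.11 and 9.24 for MNN5 (10.40 at 0 min). MNN4, a positive regulator of mannosylphosphate transfer to mannan and not itself a mannosyltransferase of the backbone, was the exception. It rose by 0.87 ± 0.23 in late MMS (adjusted p = 0.00591). Its 0 min signals differed between the courses, however, at 7.19 in the MMS course and 6.42 in the H2O2 course. Against the MMS course's own 0 min array, as without the H2O2 course's 0 min array, the rise was 0.49 (adjusted p = 0.0814, the highest over its alternatives).

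Of the 13 GPI transcripts 10 fell and 3 were not called. The first enzyme of the pathway is a complex that moves N-acetylglucosamine onto phosphatidylinositol, and it contains GPI1, GPI2, GPI15 and GPI19. GPI15 had 9.45, 9.13, 8.67, 8.25, 7.99 and 8.06 in the MMS course and fell by 1.42 ± 0.15 in late MMS (2.68-fold, adjusted p = 5.36e-05). GPI2 had 8.01, 7.26, 6.78, 6.81, 6.68 and 6.65. GPI19 behaved differently, with 6.71, 5.79, 6.13, 6.21, 6.47 and 6.61, lowest at 30 min and close to its first value at 180 min. GPI1 fell, with 8.88, 8.94 and 9.09 at 100, 140 and 180 min against 9.29 at 0 min, and lost its call without either 0 min array (adjusted p = 0.0598 and 0.0599, and up to 0.124 over the alternatives). GPI12, the deacetylase of the next step, fell by 0.41 ± 0.12 (adjusted p = 0.0103); its call was lost in 3 of 20 alternatives, one of them the omission of the MMS course's 0 min array (adjusted p = 0.0623, the highest over its alternatives). Its signal was 9.63, 9.84, 9.58, 9.26, 9.26 and 9.08.

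Of the 3 mannosyltransferases of the anchor among the members, GPI14 and GPI10 did not pass in late MMS and GPI18 fell. GPI14 lay between 9.27 and 9.53 on all 12 arrays and GPI10 between 8.85 and 9.25. GPI18 had 9.23, 8.33, 8.03, 8.35, 8.26 and 8.58 in the MMS course, so its lowest point was at 60 min. GPI13 and GPI11 act in the addition of ethanolamine phosphate. Both fell, and GPI13 did so late, with 9.50, 9.55, 9.26, 8.95, 8.59 and 8.38, while GPI11 had 9.98, 9.76, 9.28, 9.09, 9.09 and 9.02. All 3 members that belong to the transamidase, which attaches the finished anchor, fell. GPI8, its catalytic subunit, had 9.18, 8.78, 8.38, 8.06, 7.93 and 7.87 and fell by 1.22 ± 0.13 (adjusted p = 5.54e-05). GPI17 had 10.52, 10.30, 10.17, 10.17, 9.997 and 9.94, and GPI16 10.15, 10.05, 10.005, 9.92, 9.91 and 9.75. The GPI16 call was lost in 9 of 20 alternatives, with adjusted p up to 0.196, among them the omission of either 0 min array, of the 100 or 140 min H2O2 array and of the 140 or 180 min MMS array.

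In early MMS the picture was already partly there. Of the 45, 17 were lower (14.3% of all genes) and 2, ALG13 and ALG7, were higher (18.7% of all genes), with a median of -0.30 against 0.02 over all genes. Calls in either direction made up 33.1% of all genes. Both early MMS arrays lay below both arrays at 0 min for 30 members (38.3% of all genes) and above them for 6 (39.2% of all genes). The lower ones were 8 GPI, 4 MNN, 3 OST and 2 ALG genes, and no PMT gene passed the limma test in either direction (at an unadjusted p under 0.05, 1 was higher and 1 lower). The largest falls were those of GPI18 (-1.09 ± 0.15, adjusted p = 0.00191), MNN1 (-1.02 ± 0.20, adjusted p = 0.00723) and OST4. GPI8 fell by 0.59 ± 0.14 (adjusted p = 0.0151) and MNN9 by 0.58 ± 0.17 (adjusted p = 0.0297). No member was 2-fold below its 0 min signal at 30 min, and 4 of 45 were at 60 min, a share no larger than the 10.3% of all genes. The count of 19 varied with the arrays left out. It was 3 and 4 when the H2O2 or the MMS course's 0 min array was left out, 5 without the 60 min MMS array, 29 without the 30 min MMS array, and 11 without the 140 min array of either course.

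The late window of MMS was also set against the early one. Of the 45, 22 were lower late than early (21.5% of all genes) and 3, GPI19, PMT3 and PMT7, were higher (27.1% of all genes, 48.6% in either direction). The largest late declines were those of PMT4 (-1.04 ± 0.18, adjusted p = 0.00389), PMT2 (-0.92 ± 0.21, adjusted p = 0.00739) and ALG5 (-0.86 ± 0.16, adjusted p = 0.00409). GPI15 (-0.81 ± 0.15, adjusted p = 0.00427), OST5 (-0.79 ± 0.14, adjusted p = 0.00377) and MNN1 (-0.75 ± 0.18, adjusted p = 0.00998) led their families. GPI19 was 0.47 ± 0.14 higher late (adjusted p = 0.0184), PMT3 0.45 ± 0.14 (adjusted p = 0.0267) and PMT7 0.31 ± 0.10 (adjusted p = 0.0325). The count of 25 was 4 without the 30 min MMS array and 16 without the 140 min MMS array.

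Under H2O2 fewer members were called, and 3 were in the late window. In early H2O2, 11 of the 45 were lower than at time 0 (24.4%, against 19.0% of all genes) and 2, ALG13 and ALG7, were higher (4.44%, against 14.7% of all genes). The share of lower members was thus close to that of all genes, and the members' median was -0.19 against -0.04 over all genes. Calls in either direction made up 33.7% of all genes. Both early H2O2 arrays lay below both arrays at 0 min for 31 members (41.7% of all genes) and above them for 5 (33.5% of all genes). Centring the arrays on their medians changed the split to 7 lower and 3 higher. By family 4 of 7 MNN genes fell (MNN1, MNN5, MNN9 and MNN10), as did 5 of 13 GPI genes (GPI1, GPI2, GPI11, GPI18 and GPI19), ALG5 and PMT5. No OST gene passed the limma test (at an unadjusted p under 0.05, OST6 was lower, at -0.26 ± 0.11, adjusted p = 0.100).

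MNN10 had 10.80, 10.26, 9.85, 10.01, 10.19 and 10.41 in the H2O2 course, a dip at 60 min that had not closed by 180 min. Its change was -0.77 ± 0.18 in early H2O2 (adjusted p = 0.0108) and -0.62 ± 0.16 in late H2O2 (adjusted p = 0.0309). MNN1 fell by 0.78 ± 0.20 early (adjusted p = 0.0165) and MNN9 by 0.65 ± 0.17 (adjusted p = 0.0182). PMT5 had 8.06, 7.65, 7.08, 7.74, 8.06 and 8.15, an excursion that was deepest at 60 min, and fell by 0.73 ± 0.23 early (adjusted p = 0.0364). GPI18 had 9.31, 8.59, 8.57, 9.04, 9.18 and 9.36 and fell by 0.69 ± 0.15 early (adjusted p = 0.00880). Both were back at or above their first signal by 180 min. The count of 13 in early H2O2 was 1 without either 0 min array or without the 60 min H2O2 array, and 8 without the 140 min array of either course.

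In late H2O2, 3 of the 45 were lower than at time 0 (6.67%, against 6.28% of all genes), namely MNN10, GPI19 (-0.49 ± 0.14, adjusted p = 0.0376) and GPI2 (-0.49 ± 0.13, adjusted p = 0.0371). None was higher by limma (9.12% of all genes), and 3 were at an unadjusted p under 0.05. Calls in either direction made up 15.4% of all genes. All late H2O2 arrays lay below both arrays at 0 min for 21 members (39.6% of all genes) and above them for 7 (28.6% of all genes). The 3 calls were all lost without either 0 min array, without the 100 or 140 min H2O2 array or without the 140 min MMS array, and the count was 1 without the 180 min H2O2 array and 7 without either early MMS array. GPI2 had 7.87, 7.31, 7.32, 7.39, 7.46 and 7.50 in this course. GPI19 had 6.69, 6.29, 6.20, 6.19, 6.26 and 6.16. Neither of these 2 transcripts of the first anchor enzyme had returned at 180 min, whereas GPI1 of the same complex had 9.29, 8.93, 8.97, 9.34, 9.36 and 9.42.

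Among the H2O2 arrays at 30 to 180 min, 22 of the 34 members that fell in late MMS were lowest at 60 min and 7 at 30 min. The 0 min array was left out of this count, and ALG12 and GPI16 lay above it at all these times. The same count was not made over all genes. At 180 min of H2O2 no member was 2-fold or more away from its 0 min signal on either side (0.404% of all genes were that far below and 3.65% above). Late against early H2O2, GPI18 (0.62 ± 0.14, adjusted p = 0.0256) and GPI1 (0.42 ± 0.10, adjusted p = 0.0283) were higher late (4.31% of all genes were), and ALG7 (-0.72 ± 0.18, adjusted p = 0.0378) was lower (4.75% of all genes, 9.07% in either direction). These 3 calls were all lost without either early H2O2 array or without the 140 or 180 min H2O2 array, and 1 was left without either 0 min array or the 140 min MMS array.

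**Figure D4:**
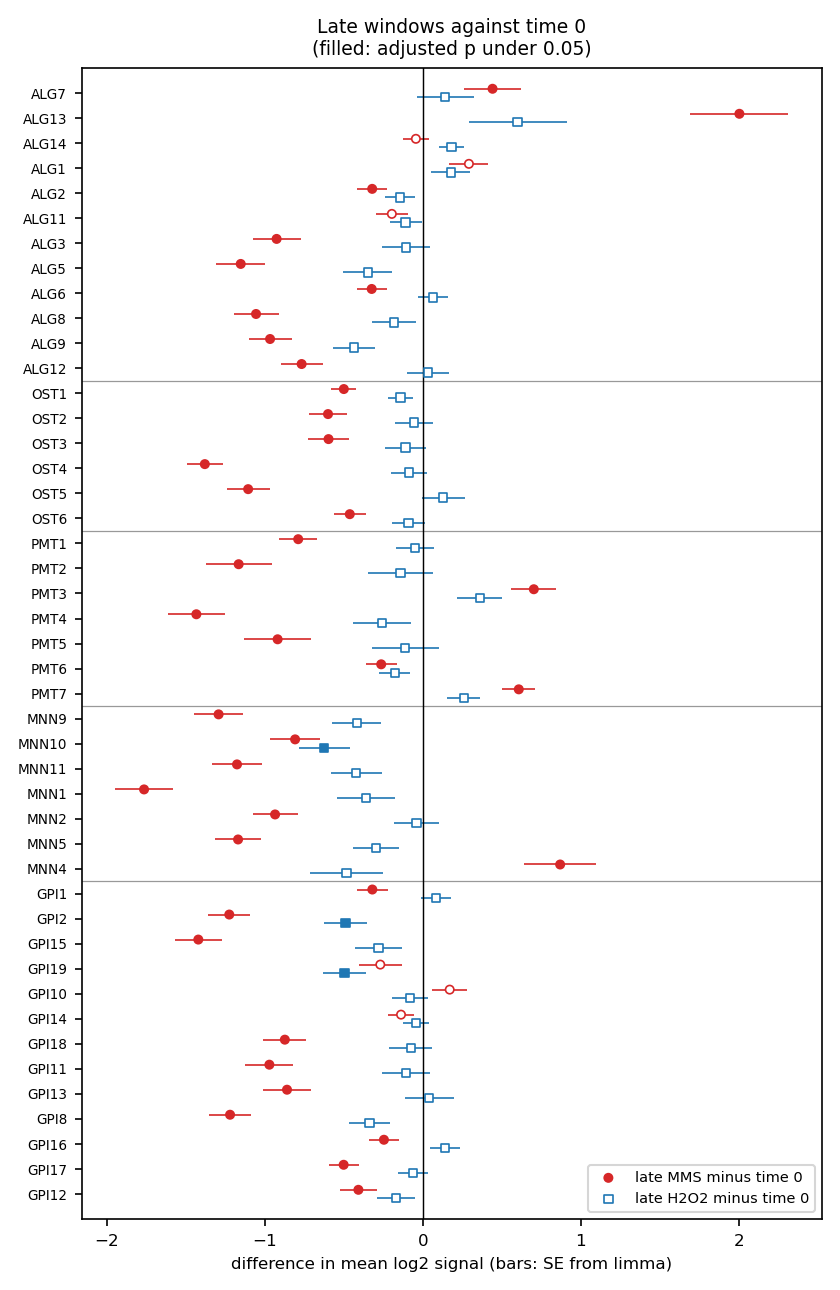
Difference in mean log2 signal from time 0 (horizontal axis, points, with the SE from limma as bars) for each of the 45 transcripts, late MMS in red circles (n = 3) and late H2O2 in blue squares (n = 3), with filled points at adjusted p under 0.05. Most red points lie left of 0 and left of their blue partner; ALG13 lies furthest right at 2.003 and MNN1 furthest left at -1.76, both in late MMS.

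The late windows of both agents were compared directly. This difference uses no 0 min signal, although its SE pools the spread of all groups, time 0 included. In late MMS 31 of the 45 were lower than in late H2O2 (68.9%, against 31.3% of all genes) and 5 were higher (11.1%, against 39.2% of all genes). Calls in either direction made up 70.5% of all genes. All 3 late MMS arrays lay below all 3 late H2O2 arrays for 34 members (34.0% of all genes) and above for 6 (42.9% of all genes), with an overlap for ALG7, ALG11, GPI19, MNN10 and PMT6. The lower ones were 7 ALG, 6 OST, 4 PMT, 5 MNN and 9 GPI genes. The largest differences downward were MNN1 (-1.40 ± 0.16, adjusted p = 6.83e-05), OST4 (-1.29 ± 0.10, adjusted p = 3.02e-05) and OST5 (-1.23 ± 0.12, adjusted p = 3.77e-05). PMT4 (-1.18 ± 0.16, adjusted p = 0.000164) and GPI15 (-1.14 ± 0.13, adjusted p = 7.00e-05) led their families.

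The members that were higher in late MMS than in late H2O2 were ALG13, MNN4, PMT3, PMT7 and GPI10. ALG13 averaged 11.18 in late MMS and 9.78 in late H2O2 (difference 1.40 ± 0.28, adjusted p = 0.00130). MNN4 averaged 7.67 in late MMS and 6.32 in late H2O2 (1.35 ± 0.20, adjusted p = 0.000268), and the 0 min arrays of these courses already differed by 0.77 in the same direction. PMT7 was 0.35 ± 0.09 higher (adjusted p = 0.00740). PMT3 averaged 9.79 in late MMS and 9.45 in late H2O2, and this call was lost in 8 of 20 alternatives, with adjusted p up to 0.142; array centring and the omission of any late MMS array or of the 140 or 180 min H2O2 array were among these. GPI10, at 9.13 in late MMS and 8.88 in late H2O2, lost its call in 11 of 20 alternatives, with adjusted p up to 0.194, among them array centring and the omission of any of 7 single arrays. MNN10, which had stayed lower under both agents, averaged 10.02 in late MMS and 10.20 in late H2O2 and was not called.

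In the early windows 1 member differed between the agents. OST4 averaged 9.47 in early MMS and 10.23 in early H2O2 (-0.76 ± 0.12, adjusted p = 0.00932). Of all genes 2.39% were lower and 5.74% were higher in this comparison, 8.13% in all. None of the 45 was higher by limma, and 1 was at an unadjusted p under 0.05. Centring the arrays moved the median of all genes by -0.10 here and changed the split of all called genes from 313 higher and 130 lower to 167 higher and 195 lower, while quantile normalization gave 210 higher and 156 lower. Without the 30 min MMS array 3 members were called.

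Other genes of the same pathways, whose names do not follow the 5 patterns, were taken from lists set up with earlier results of these data known. Of 64 such genes measured, 38 were lower and 11 higher in late MMS (59.4% and 17.2%, against 34.6% and 40.3% of all genes). Their median was -0.43, against 0.09 over all genes. In early MMS 16 were lower and 5 higher (25.0% and 7.81%, against 14.3% and 18.7% of all genes). In late H2O2 1 was lower and 1 higher (1.56% each, against 6.28% and 9.12%). In early H2O2 8 were lower and 5 higher (12.5% and 7.81%, against 19.0% and 14.7%), so both H2O2 windows had smaller shares than all genes. Against late H2O2, late MMS had 39 lower and 10 higher (60.9% and 15.6%, against 31.3% and 39.2% of all genes).

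The 12 other genes of N-glycan assembly and transfer included 7 that fell and 1 that rose in late MMS (58.3% and 8.33%, against 34.6% and 40.3% of all genes). DIE2, which adds the outermost glucose of the lipid-linked oligosaccharide, fell by 1.23 ± 0.16 (adjusted p = 0.000126), alongside the lumenal ALG genes. RER2, a subunit of the enzyme that makes the dolichol chain, fell by 0.92 ± 0.11 (adjusted p = 7.50e-05), whereas NUS1, its partner in that enzyme, rose by 0.79 ± 0.12 (adjusted p = 0.000242). STT3, the catalytic subunit of oligosaccharyltransferase, was one of the 7, with a mean of 11.19 in late MMS against 11.82 at time 0. Of the 10 trimming and quality control genes, 5 fell and 2 rose (50% and 20%, against 34.6% and 40.3% of all genes). The risers were PNG1, which strips glycans from misfolded proteins in the cytosol (1.73 ± 0.18, adjusted p = 5.11e-05), and YOS9, an ER lectin of protein degradation (0.98 ± 0.17, adjusted p = 0.000452).

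Of the 15 other GPI genes, 8 fell and 2 rose in late MMS (53.3% and 13.3%, against 34.6% and 40.3% of all genes). MCD4, an ethanolamine phosphate transferase, fell by 1.35 ± 0.18 (adjusted p = 0.000127) and ERI1, a further subunit of the first anchor enzyme, by 1.10 ± 0.14 (adjusted p = 0.000109). PBN1, the partner of GPI14 in the first mannosylation, rose by 1.50 ± 0.17 (adjusted p = 6.34e-05). Of the 19 other Golgi genes, 13 fell and 4 rose (68.4% and 21.1%, against 34.6% and 40.3% of all genes). GDA1, the Golgi GDPase, fell by 2.01 ± 0.24 (adjusted p = 8.34e-05) and VRG4, the transporter that brings GDP-mannose into the Golgi, by 1.41 ± 0.20 (adjusted p = 0.000197). KTR2, a mannosyltransferase, rose by 0.82 ± 0.25 (adjusted p = 0.0132).

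The 8 genes of sugar nucleotide supply included 5 that fell and 2 that rose in late MMS (62.5% and 25%, against 34.6% and 40.3% of all genes). PSA1, which makes GDP-mannose, fell by 1.22 ± 0.24 (adjusted p = 0.000993), and SEC53, the phosphomannomutase before it, by 1.12 ± 0.14 (adjusted p = 0.000107). UGP1, which makes UDP-glucose, rose by 1.86 ± 0.20 (adjusted p = 5.59e-05). In early H2O2 the largest rises in these lists were KTR2 (1.90 ± 0.28, adjusted p = 0.00214), OCH1, which starts the Golgi outer chain (1.89 ± 0.40, adjusted p = 0.00830), and UGP1 (1.21 ± 0.22, adjusted p = 0.00489). In the same window 4 of the 7 MNN genes fell (57.1%, against 19.0% of all genes). Of the 19 other Golgi genes, 4 fell and 3 rose in early H2O2 (21.1% and 15.8%, against 19.0% and 14.7% of all genes). Their median was -0.19, so KTR2 and OCH1 do not stand for that list.

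Genes of ER folding and the unfolded protein response, a transcription programme in which the kinase IRE1 activates the factor HAC1 when unfolded protein builds up in the ER, were counted beside the glycosylation genes. Of 14 measured (FKB2 was not matched), 3 rose in late MMS (21.4%, against 40.3% of all genes) and 6 fell (42.9%, against 34.6%). Their median was -0.09. ERO1, the ER thiol oxidase, rose by 1.74 ± 0.17 (adjusted p = 4.86e-05) and PDI1, protein disulfide isomerase, by 0.52 ± 0.14 (adjusted p = 0.00589). SEC63, of the translocation machinery, fell by 1.13 ± 0.18 (adjusted p = 0.000286), IRE1 by 1.09 ± 0.14 (adjusted p = 0.000110) and HAC1 by 0.49 ± 0.09 (adjusted p = 0.000908). KAR2, the main ER chaperone, had a late MMS value of 0.16 ± 0.08 (adjusted p = 0.106). In early MMS 2 rose and 2 fell (14.3% each, against 18.7% and 14.3% of all genes). In late H2O2 1 rose and 1 fell (7.14% each, against 9.12% and 6.28%), and in early H2O2 1 fell (7.14%, against 19.0%).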

How the data were processed

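The deposited values are log2 signals of probe sets on one-colour Affymetrix arrays, which per the submitters' processing notes were summarised with RMA; its version, and whether the 12 arrays were normalized together, are not given in the sources used here. Per the labels, total RNA was copied with poly(T) primers into labelled cRNA. No further scaling was applied. Of 5900 probe sets, 184 are controls and 218 have no gene name. The other 5498 gave 5449 genes, with the brightest probe set taken for 47 genes. All 45 members matched a name in NCBI RefSeq's table (assembly R64), and none is read by a probe set of a type shared between transcripts.

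A model with 1 mean per group was fitted to all genes with limma 3.58.1 in R 4.3.3 (7 residual and 2.71 prior degrees of freedom, median residual SD 0.169), with 8 contrasts, Benjamini-Hochberg adjustment over all genes and a threshold of 0.05. The 4 contrasts with time 0 were tested on simulated data, where smaller changes were often missed. Far fewer genes were changed there than the 74.9% called in late MMS, and the noise was independent between arrays. The adjustment was therefore stricter there, and the share missed does not carry over to late MMS. The number of arrays limits the precision.

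The members and lists, and the grouping by pathway step, were chosen with earlier results of these data known. Changes with SE and adjusted p are given for the 3 largest rises and falls among called members of a contrast, the largest change per family, a fixed set (ALG7, OST1, OST3, OST6, PMT1, PMT2, PMT4, PMT5, MNN1, MNN9, GPI8, GPI12, KAR2 and HAC1), and up to 3 called genes per direction of each of 6 pathway lists (N-glycan assembly, trimming and quality control, other GPI genes, Golgi mannosyltransferases, sugar nucleotide supply and ER folding). OST6 in early H2O2, STT3 and the genes with mean signals only were named after their values were seen. Alternatives were array centring, quantile normalization, leaving out the dimmest 25% of genes, robust moderation with a mean-variance trend and averaging a gene's probe sets. Further ones were other early windows, the same course's 0 min array, the time point as a block, and each array left out in turn. No member had several probe sets, so averaging left the members' signals as they were. Leaving out an array of a group outside a contrast left its difference unchanged and could move only the SE and p. For a contrast with time 0, the same course's 0 min array gave the same result as omitting the other course's 0 min array. Counts over the alternatives therefore overstate the number of separate checks.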

Additional observations from a re-analysis of the deposited data

Results flagged for a closer look

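The results listed here are members whose signal differed between MMS and H2O2 by the limma contrast of the same window (adjusted p under 0.05 over all genes). This contrast sets signals side by side and does not subtract the 0 min arrays. Of all genes, 70.5% were called in the late window and 8.13% in the early one. In the early window this was OST4, at -0.76 in early MMS minus early H2O2. All other values are log2 differences of late MMS minus late H2O2.

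In the ALG family ALG13 differed by 1.40, and the others were lower in MMS: ALG8 by -0.87, ALG3 by -0.82, ALG5 by -0.81, ALG12 by -0.80, ALG9 by -0.53, ALG6 by -0.39 and ALG14 by -0.23. The OST subunits were all lower, with OST4 at -1.29, OST5 at -1.23, OST2 at -0.55, OST3 at -0.49, OST6 at -0.37 and OST1 at -0.36. Of the PMT genes PMT7 (0.35) and PMT3 (0.34) were higher, and PMT4 (-1.18), PMT2 (-1.02), PMT5 (-0.81) and PMT1 (-0.74) were lower. MNN4 stood at 1.35, against -1.40 for MNN1, -0.89 for MNN2, -0.87 for MNN5, -0.87 for MNN9 and -0.75 for MNN11. The 0 min arrays of MNN4 already differed by 0.77 in the same direction. In the GPI family GPI10 was at 0.25, and GPI15 was at -1.14, GPI13 at -0.90, GPI8 at -0.88, GPI11 at -0.86, GPI18 at -0.80, GPI2 at -0.74, GPI17 at -0.44, GPI1 at -0.40 and GPI16 at -0.39.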

How the results depend on the processing

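The counts of members called in late MMS (39, and 32 to 41 over its alternatives) and in late MMS against late H2O2 (36, and 33 to 38, with 38 when the time point was a block) stayed within 1.5 times of the reported value under every alternative. Of the late MMS calls, 28 of 34 falls and 3 of 5 rises held under every alternative (the others were ALG2, ALG6, GPI1, GPI12, GPI16 and PMT6, and ALG7 and MNN4), as did 28 of 31 falls and 3 of 5 rises against late H2O2 (the others were ALG14, GPI1 and PMT5, and GPI10 and PMT3). The early and the H2O2 counts were not stable, and the cause was not tested. With an early window of 30 min alone and a late window of 60 to 180 min the counts were 1 (early H2O2), 0 (early MMS, with 5 at an unadjusted p under 0.05), 0 (late against early H2O2, with 1) and 0 (early MMS against early H2O2, with 2). With an early window of 30 to 100 min, which leaves 140 and 180 min as the late one, they were 7 (early H2O2), 0 (late H2O2, with 3 unadjusted), 0 (late against early H2O2, with 7), 8 (late against early MMS) and 4 (early MMS against early H2O2). With the same course's 0 min array alone as baseline they were 1 (early H2O2), 0 (late H2O2, with 3 unadjusted) and 3 (early MMS). Leaving out the dimmest 25% of genes left 1 call in late H2O2, that of MNN10, because GPI2 and GPI19 were themselves among the genes left out. The time point as a block gave 2 in early MMS against early H2O2. Over the arrays left out in turn the counts ranged from 1 to 19 (early H2O2), 0 to 7 (late H2O2), 3 to 29 (early MMS), 32 to 40 (late MMS), 0 to 4 (late against early H2O2), 4 to 28 (late against early MMS), 1 to 3 (early MMS against early H2O2) and 33 to 37 (late MMS against late H2O2). Of 203 single-gene results with 4029 values under alternatives, 3608 kept direction and call, 393 lost the call, 18 gained it and 10 changed sign. Many of these values are not separate checks, because the alternative could not move the difference or repeated another alternative. The same holds for the calls kept under every alternative. The sign changes were of uncalled values: GPI12 in early H2O2 (0.021 with centring and 0.11 with 30 min alone, and -0.17 to 0.11 over single arrays left out), GPI12 in early MMS (-0.049 with 30 to 100 min, and -0.031 to 0.23 over single arrays), PMT5 in late H2O2 (0.011 when the late window was 140 and 180 min, and -0.19 to 0.011 over single arrays) and KAR2 in early H2O2 (0.035 with centring and 0.0065 with the same course's 0 min array, and -0.044 to 0.0065 over single arrays).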

Other observations

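Yeast genes often sit back to back, with a shared stretch of DNA between 2 starts. In the order of genes of the RefSeq table, 27 of the 45 members have such a divergent neighbour, and the neighbour was measured for 23. These pairs were looked at after the members' values were seen, and the changes below are late MMS minus time 0, on the log2 scale, with the neighbour's SE and adjusted p from limma.

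Among the members that rose, ALG13 lies beside RPT6, a proteasome subunit that rose by 0.89 ± 0.17 (adjusted p = 0.000882), and ALG7 beside GPX2, a peroxide-reducing enzyme that rose by 2.26 ± 0.89 (adjusted p = 0.0408). PMT3 lies beside GNT1, a Golgi N-acetylglucosaminyltransferase that fell by 0.96 ± 0.13 (adjusted p = 0.000129). The members that fell include OST1, beside the proteasome gene PRE3, which rose by 1.19 ± 0.20 (adjusted p = 0.000430), and PMT1, beside the proteasome gene RPN6, which rose by 1.12 ± 0.14 (adjusted p = 8.75e-05). In all, 16 members with a measured neighbour fell. Of their neighbours 7 rose, 5 fell and 4 were not called, against 40.3% of all genes that rose and 34.6% that fell. The largest rise among these neighbours was VPS5 beside ALG8 (1.62 ± 0.18, adjusted p = 6.20e-05). The largest fall was YBL081W beside ALG3 (-2.09 ± 0.24, adjusted p = 6.78e-05). No rule was set for which neighbours are named. GPI10, itself not called, lies beside HUL5, a ubiquitin ligase that rose by 2.60 ± 0.27 (adjusted p = 5.11e-05).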
